A study of Mus musculus with 8 samples.

Results

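The genes described here make, load and take up the transmitters of retinal amacrine cells, or set the fate of these cells. They were picked by gene symbol, with earlier results of these data known. They number 9 of the 55213 genes in the tables: Gad1, Gad2 and Slc32a1 for GABA, Slc6a9 for glycine, Chat, Slc18a3 and Slc5a7 for acetylcholine, and the transcription factors Tfap2a and Tfap2b. All 9 passed the minimum of 10 counts over the 8 libraries, as did 26900 genes in all, and the lowest value of any of the 9 in any library was 174 counts. The study asked whether a high-fat diet changes the retinal transcriptome of mice that have no gut microbes. Each library is RNA of whole retina from a different adult male germ-free C57B1/6 mouse. Normal diet was given to 4 animals (GF-ND, numbers 9, 10, 11 and 12). A high-fat diet with 23% saturated fat was given to 4 others (GF-HFD, numbers 13, 15, 16 and 19). Feeding began when the mice were 7 weeks old, lasted 8 weeks and ended with tissue collection at 15 weeks. Both groups lacked microbes, so no animal with a normal microbiome stands in the comparison, and the physiology of germ-free mice differs from that of conventional ones. The makeup of the normal diet is not given in the sources used here.

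Amacrine cells are the inhibitory interneurons of the inner retina. They shape the signals that bipolar cells pass to ganglion cells, and nearly all of them release either GABA or glycine. A transmitter needs an enzyme or uptake system that supplies it and a carrier that fills synaptic vesicles. Glutamate decarboxylases make GABA from glutamate, and the vesicular carrier Slc32a1 loads both GABA and glycine. Starburst amacrine cells also make acetylcholine and are the cells behind direction selectivity. They take up choline through Slc5a7, acetylate it with Chat and load the product with Slc18a3. AP-2 transcription factors act as amacrine cells form and stay on in the adult cells. Several of these genes are not exclusive to amacrine cells, because horizontal cells also make GABA and contain AP-2 factors, and AP-2 alpha is made in the epithelium of the lens and the cornea as well. In whole retina, fewer cells of a type and less RNA per cell cannot be told apart.

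The libraries held 39258006 to 44357518 counts. GF-ND mouse 11 stood apart, since 14 lens genes made up 6.03% of its counts, 1.05% in GF-HFD mouse 19 and 0.0164 to 0.151% in the other 6 libraries. This mouse also had the lowest rod markers, and the values without it are given below. Levels are CPM, counts scaled to library size with TMM factors, as mean ± SD over 4 mice. A positive log2 fold change means a higher level in GF-HFD retinas, and its standard error (SE) comes from edgeR's quasi-likelihood fit. Nothing in the labels says that mice shared a cage, litter or day.

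The 9 genes lie on 6 chromosomes, and a single pair shares a locus. Slc18a3 (chromosome 14, 32462438 to 32464850, GRCm38, minus strand) is a single-exon gene inside the span of Chat (chromosome 14, 32408203 to 32465989, minus strand), and the exons of both share 0 bases in GENCODE vM21. Gad1 (70553072 to 70602014), Gad2 (22622205 to 22693874) and Slc32a1 (158610767 to 158615748) are on chromosome 2, Slc6a9 is on chromosome 4 (117834506 to 117875198) and Slc5a7 on chromosome 17 (54273590 to 54299034). Tfap2a is on chromosome 13 (40715302 to 40738376) and Tfap2b on chromosome 1 (19208914 to 19238576). The upstream sequences of the acetylcholine genes are shown because this is the group that holds the shared locus, and that of Gad2 because it is the other gene with a match to the AP-2 motif. They are RefSeq promoter sequences on GRCm38.p6, 5′ to 3′ on the gene's strand, and end before the gene's first GENCODE exon base. Capitals mark matches to GCCNNNGGC, the motif that AP-2 factors bind, and this motif reads the same on both strands. The Slc18a3 stretch is chr14:32464851-32465100 and lies in an intron of Chat with 59 of its bases in an exon of the antisense gene Gm2990, that of Chat is chr14:32465990-32466159, that of Slc5a7 is chr17:54299035-54299284 and that of Gad2 is chr2:22622077-22622204.
Slc18a3: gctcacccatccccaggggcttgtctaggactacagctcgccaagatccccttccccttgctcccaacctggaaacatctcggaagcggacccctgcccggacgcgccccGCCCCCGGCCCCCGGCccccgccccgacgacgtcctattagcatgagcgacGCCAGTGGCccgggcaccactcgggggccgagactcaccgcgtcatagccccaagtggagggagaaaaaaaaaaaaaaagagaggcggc
Chat: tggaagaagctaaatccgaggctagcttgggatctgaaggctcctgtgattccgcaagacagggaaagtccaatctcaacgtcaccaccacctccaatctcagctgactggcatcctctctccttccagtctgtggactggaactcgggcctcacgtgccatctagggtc
Slc5a7: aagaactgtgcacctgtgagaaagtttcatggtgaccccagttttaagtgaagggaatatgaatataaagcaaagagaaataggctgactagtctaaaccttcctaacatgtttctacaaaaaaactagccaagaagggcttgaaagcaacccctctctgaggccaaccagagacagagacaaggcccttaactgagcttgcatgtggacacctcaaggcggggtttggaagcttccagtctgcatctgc
Gad2: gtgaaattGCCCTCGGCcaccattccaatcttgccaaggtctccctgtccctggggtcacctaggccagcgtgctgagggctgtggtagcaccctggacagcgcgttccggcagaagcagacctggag
The Slc18a3 stretch holds 3 matches, which begin 140, 133 and 89 bases before the start, and the first and second of these overlap. Gad2 holds 2 matches in the full window of 250 bases, of which 1 lies in the part shown. Over all 32851 RefSeq promoter windows of 250 bases, 13.7% hold the motif, and it was found in 2 of the 12 windows of these genes, since Slc6a9 has several starts and Tfap2a a pair. TATAAA, searched on both strands, was found in the windows of Gad1 and Slc5a7 and in 12.4% of all windows. Such matches are descriptions of the letters and not binding sites.

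Per length, Gad1 and Tfap2b were the most abundant of the group and the acetylcholine genes the least. On the scale of CPM per kb of exon sequence, means over all 8 libraries were 41.2 ± 3.21 for Gad1, 30.4 ± 3.92 for Tfap2b, 19.6 ± 2.12 for Slc32a1, 19.6 ± 2.06 for Slc6a9 and 12.8 ± 1.77 for Gad2 (SD, n = 8). Tfap2a had 6.01 ± 1.87, Slc5a7 3.28 ± 0.534, Chat 2.66 ± 0.472 and Slc18a3 2.395 ± 0.394 (SD, n = 8). The order of neighbours held in 8 of 8 libraries for Gad1 over Tfap2b, Tfap2b over Slc32a1, Slc6a9 over Gad2, Gad2 over Tfap2a and Tfap2a over Slc5a7. Slc32a1 exceeded Slc6a9 in 4 of 8 libraries, Slc5a7 exceeded Chat in 6 and Chat exceeded Slc18a3 in 6, so these neighbours did not differ beyond their spread. Opposite-strand exons of Gm14205 cover 24.9% of the Slc32a1 exon bases. Those of Ccdc24, Gm17114 and B4galt2 cover 27.8%, 9.94% and 0.895% of the Slc6a9 ones. Those of Gm26688, Gm47061 and Gm47067 cover 7.75%, 5.40% and 1.49% of the Tfap2a ones. The per-length levels of Slc32a1, Slc6a9 and Tfap2a are uncertain to that extent. Of all counts that fell on the 9 genes, Gad1 took 37.3 to 41.1% and Tfap2b 22.8 to 25.5%, while Chat, Slc18a3 and Slc5a7 took 1.18 to 1.89%, 0.603 to 0.818% and 1.71 to 2.79%.

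**Figure D1:**
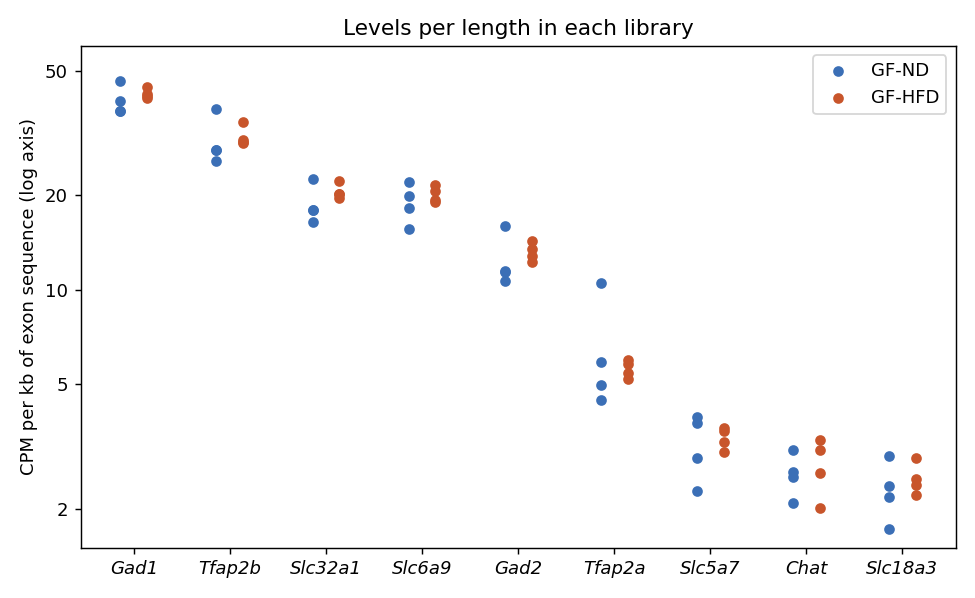
Levels of the 9 genes per length (y axis, CPM per kb of exon sequence, log axis) with 1 point per library, colored by diet, with genes ordered by their mean. The acetylcholine genes Slc5a7, Chat and Slc18a3 lie lowest and overlap each other, and the highest Tfap2a point, 10.5, is GF-ND mouse 11.

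The GABA genes were slightly higher on average in GF-HFD retinas, within the spread of the mice. Gad1 encodes GAD67, the decarboxylase that makes most of the GABA in cells. Its levels were 306, 283, 355 and 284 CPM in GF-ND mice 9, 10, 11 and 12 and 322, 338, 312 and 317 CPM in GF-HFD mice 13, 15, 16 and 19. The groups overlapped only through mouse 11, the highest library of all. The group means were 307 ± 33.4 and 322 ± 11.4 CPM (SD, n = 4), a log2 fold change of 0.07 (SE 0.09, edgeR adjusted p = 0.856). The 95% interval of the fold ran from 0.911 to 1.21, so larger differences in either direction fall outside it.

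Gad2 encodes GAD65, the form bound to synaptic vesicle membranes. It had 67.2, 67.1, 94.1 and 62.8 CPM in the GF-ND mice, in the order above, and 84.1, 79.5, 71.9 and 75.5 CPM in the GF-HFD mice. Again 3 GF-ND mice lay below every GF-HFD mouse and mouse 11 above them all. The log2 fold change was 0.09 (SE 0.13, edgeR adjusted p = 0.860), with an interval of the fold from 0.878 to 1.30. Slc32a1, the vesicular carrier of GABA and glycine, had 50.2, 50.3, 63.1 and 45.9 CPM in GF-ND and 62.0, 54.8, 56.5 and 56.3 CPM in GF-HFD mice. It showed the same arrangement of mice, and its log2 fold change of 0.13 (SE 0.10, edgeR adjusted p = 0.744) had the smallest p of the 9 genes. The counts of the 3 genes kept close proportions in all mice, with 3.77 to 4.55 Gad1 counts per Gad2 count and 1.27 to 1.49 Gad2 counts per Slc32a1 count. The antisense gene Gm14205 covers 24.9% of the Slc32a1 exon bases, and the strand setting of the counting is not given in the sources used here, so Slc32a1 counts are uncertain to that extent. Gm14205 itself had at most 1 count in any library, which does not tell how reads on the shared bases were handled.

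Slc6a9 encodes GLYT1, the transporter that takes glycine back up and marks glycinergic amacrine cells. It had 93.6, 113, 103 and 80.2 CPM in the GF-ND mice and 97.8, 99.2, 111 and 106 CPM in the GF-HFD mice. Here the highest library was GF-ND mouse 10 and not mouse 11, and the groups overlapped broadly. The means were 97.4 ± 13.9 and 104 ± 6.31 CPM (SD, n = 4), with a log2 fold change of 0.09 (SE 0.11, edgeR adjusted p = 0.838). The 95% interval of the fold was 0.903 to 1.26. Gad1 had 2.50 to 3.54 counts per Slc6a9 count, lowest in mouse 10. Exons of Ccdc24 on the opposite strand cover 27.8% of the Slc6a9 exon bases, and Ccdc24 had a log2 fold change of -0.09 (SE 0.25). Opposite-strand exons of Gm17114 and B4galt2 cover a further 9.94% and 0.895%, counted gene by gene.

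**Figure D2:**
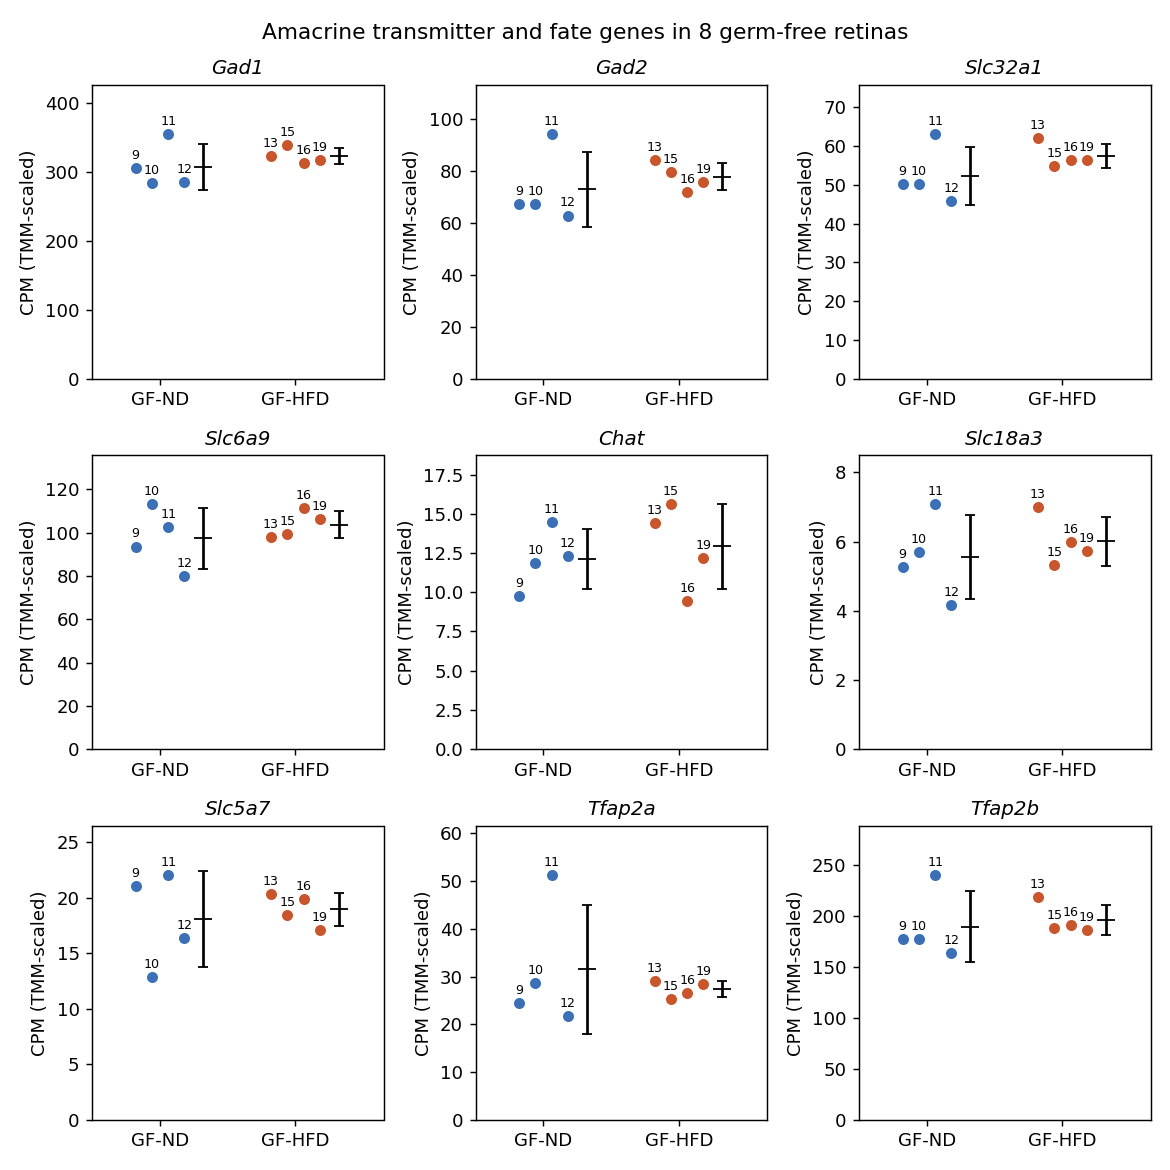
CPM after TMM scaling (y axes, from 0) of the 9 genes in each GF-ND (blue) and GF-HFD (orange) library. Points carry the mouse number, bars give the mean and SD of 4 mice, and GF-ND mouse 11 is the highest library in 7 of the 9 panels.

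The acetylcholine genes varied widely from mouse to mouse, and their proportions to each other varied too. Chat, the enzyme that makes acetylcholine, had 9.79, 11.9, 14.5 and 12.3 CPM in GF-ND and 14.4, 15.6, 9.45 and 12.2 CPM in GF-HFD mice. The lowest and the highest library both came from the GF-HFD group. Its log2 fold change was 0.09 (SE 0.18, edgeR adjusted p = 0.909). Slc18a3, the vesicular acetylcholine transporter, had 5.26, 5.71, 7.08 and 4.16 CPM in GF-ND and 7.00, 5.32, 6.00 and 5.72 CPM in GF-HFD mice. Mice 11 and 13 were alike at the top, and the log2 fold change was 0.11 (SE 0.19, edgeR adjusted p = 0.891). Slc5a7, the high-affinity choline transporter, had 21.1, 12.8, 22.1 and 16.3 CPM in GF-ND and 20.3, 18.5, 19.9 and 17.1 CPM in GF-HFD mice. The GF-ND mice thus spanned the GF-HFD mice on both sides, and the log2 fold change was 0.07 (SE 0.17, edgeR adjusted p = 0.936).

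The 95% intervals of the folds were 0.810 to 1.404 for Chat, 0.811 to 1.44 for Slc18a3 and 0.811 to 1.35 for Slc5a7, wider than for the GABA genes. Counting error alone would give a coefficient of variation of 4.36% for Chat at a mean of 525 counts, while GF-ND mice showed 15.9% and GF-HFD mice 21.0%. For Slc18a3, at a mean of 243 counts, 6.42% would come from counting, against 21.7% and 11.9%. Within a library, the ratio of Chat to Slc18a3 counts ran from 1.58 in GF-HFD mouse 16 to 2.95 in GF-ND mouse 12, and that of Slc5a7 to Chat from 1.08 in GF-ND mouse 10 to 2.16 in GF-ND mouse 9. Although Chat and Slc18a3 share a locus, Chat was lowest in mouse 16 and Slc18a3 in mouse 12. For 7 count ratios among the 9 genes, chosen after the values were seen, the smallest p of a two-sided exact permutation test between diets was 0.343 (n = 4 each, 70 arrangements), and the smallest adjusted p was 0.943.

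Neither AP-2 gene passed the test, and the sign of Tfap2a rested on a single mouse. Tfap2b, AP-2 beta, had 178, 177, 240 and 163 CPM in GF-ND and 218, 188, 191 and 186 CPM in GF-HFD mice. As with the GABA genes, mouse 11 was on top and the other GF-ND mice lay below every GF-HFD mouse. Its log2 fold change was 0.05 (SE 0.12, edgeR adjusted p = 0.939), and the interval of the fold was 0.854 to 1.25. Tfap2a, AP-2 alpha, had 24.3, 28.7, 51.3 and 21.8 CPM in GF-ND and 29.2, 25.3, 26.6 and 28.4 CPM in GF-HFD mice. Without mouse 11 the remaining 7 libraries all lay between 21.8 and 29.2 CPM. Tfap2a alone of the 9 had a negative log2 fold change, -0.20 (SE 0.24, edgeR adjusted p = 0.833), with an interval of the fold from 0.603 to 1.25. Without mouse 11 it was 0.14 (SE 0.10, edgeR adjusted p = 0.449).

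Mouse 11 had 4.68 Tfap2b counts per Tfap2a count, against 6.16 to 7.49 in the other 7 mice, so Tfap2a was higher there relative to Tfap2b. The lens list had a mean of 10.6 log2 CPM in this mouse, 7.04 in GF-HFD mouse 19 and at most 4.04 in the other 6. Of 5 cornea markers, Aldh3a1 had 148 CPM in mouse 11, 43.1 in mouse 19 and at most 2.29 elsewhere. The keratins on that list were at most 2.72 CPM in any library. That highest value was Krt15 in mouse 11, followed by 1.69 CPM in mouse 16, and Krt5 had 0.739 and 0.824 CPM in these mice. Krt12, the defining keratin of the cornea, had 13 counts in mouse 11, 26 in mouse 9, 32 in mouse 16 and 0 in mice 13 and 19. The mean of the cornea list was highest in mouse 11, at 0.81 log2 CPM, against -0.03 in mouse 16 and -1.38 in mouse 19. In mouse 19, Tfap2a stood at 28.4 CPM with 6.56 Tfap2b counts per Tfap2a count. The part of lens or cornea RNA in the Tfap2a value of mouse 11 was not tested. Antisense genes Gm26688, Gm47061 and Gm47067 cover 7.75%, 5.40% and 1.49% of the Tfap2a exon bases.

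Across the group, no gene passed the test between diets. With edgeR, 0 of the 9 had an adjusted p under 0.05, beside 0.00% of all 26900 genes tested, and limma-voom and DESeq2 also called 0 of the 9, where DESeq2 called 46 genes in the table. At an unadjusted p under 0.05, 0 of the 9 were called in either direction, beside 7.38% of all genes (2.85% higher and 4.53% lower). At the study's thresholds (a log2 fold change beyond 1 in size, with unadjusted p under 0.01) 0 were called, beside 0.457%. In 0 of the 9 did every mouse of one diet exceed every mouse of the other, beside 4.83% of all genes (2.29% higher and 2.54% lower). Among genes with a mean of at least 10 CPM these shares were 8.70% for an unadjusted p under 0.05 and 6.04% for groups that did not overlap. Two-sided exact permutation tests of the single genes gave p = 0.257 for Slc32a1, 0.371 for Gad1 and 0.429 to 0.886 for the other 7 (n = 4 each), where 0.0286 is the smallest that 70 arrangements allow.

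The fitted level was higher in GF-HFD retinas in 8 of the 9 genes, beside 46.3% of all genes tested and 60.9% of the 10355 genes with a mean of at least 10 CPM. The median log2 fold change was 0.09 over the 9 genes, -0.03 over all genes and 0.04 over those with at least 10 CPM. The 9 genes are measured in the same mice, and their common sign is not 8 separate observations. Among the 9, fold changes ran from -0.20 for Tfap2a to 0.13 for Slc32a1.

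The mice farthest from the 8-library mean over the group of genes were both on the normal diet. GF-ND mouse 11 was the highest library in 7 of the 9 genes and above the 8-library mean in all 9, with a median deviation of 0.27 on the log2 scale. GF-ND mouse 12 was the lowest library in 6 and below the mean in all 9, with a median deviation of -0.25. GF-HFD mouse 13 was above the mean in 8 genes (median 0.17), and the other 3 GF-HFD mice had medians between -0.004 and 0.005. GF-ND mice had coefficients of variation of 10.9 to 42.8% and GF-HFD mice of 3.53 to 21.0%, and without mouse 11 that of Gad2 in GF-ND mice fell from 19.8 to 3.84%. It fell in 7 of the 9 genes and rose for Slc6a9 (14.3 to 17.3%) and Slc5a7 (23.8 to 24.8%). The exceptions were Chat, highest in mouse 15 and lowest in mouse 16, Slc6a9, highest in mouse 10, and Gad1 and Slc5a7, lowest in mouse 10.

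**Figure D3:**
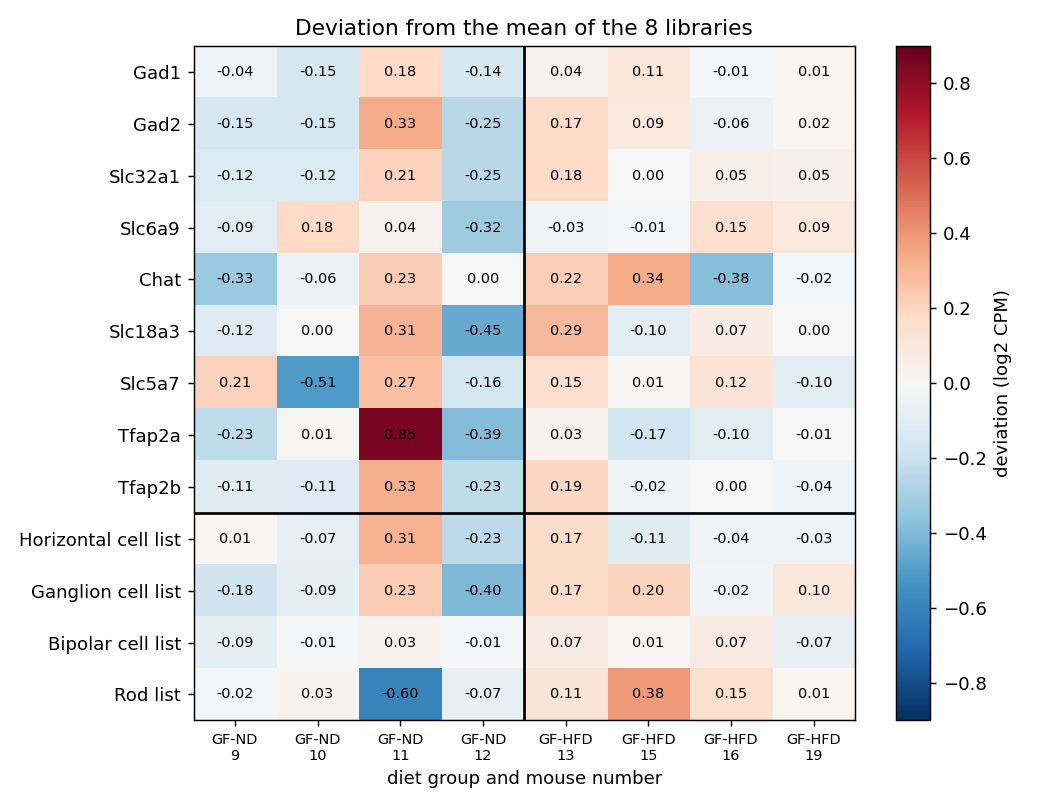
Deviation of log2 CPM from the mean of the 8 libraries (color and printed value) for the 9 genes, and below the line for the mean of 4 marker lists, in each mouse (columns). GF-ND mouse 11 is above the mean for all 9 genes and for horizontal and ganglion cell markers and is at -0.60 for rods, while GF-ND mouse 12 is at or below the mean for all 9 genes.

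Several marker lists, among them horizontal cell, ganglion cell and glia markers, were high in mouse 11 and low in mouse 12, like the 9 genes. Bipolar cell markers stayed near the mean in both mice, and rod markers were low in mouse 11. In mouse 11 the mean of 4 horizontal cell markers deviated by 0.31 and that of 9 ganglion cell markers by 0.23, while 8 bipolar cell markers stood at 0.03 and 8 rod markers at -0.60 (log2 scale). In mouse 12 the deviations were -0.23 for horizontal, -0.40 for ganglion, -0.01 for bipolar and -0.07 for rod markers. Mueller glia markers stood at 0.14 in mouse 11 and -0.28 in mouse 12, and microglia markers at 0.13 and -0.56. The lens, cornea, fibroblast, ciliary body and pigment epithelium lists also lay above their mean in mouse 11 and below it in mouse 12. Between diets, 9 of 9 ganglion cell markers were fitted higher in GF-HFD (median 0.20, list means of 5.24 to 5.87 log2 CPM in GF-ND and 5.62 to 5.85 in GF-HFD mice), as did 8 of 8 rod markers (median 0.31, 10.95 to 11.6 in GF-ND and 11.6 to 11.9 in GF-HFD mice). The 4 horizontal cell markers had 2 higher and 2 lower (median -0.02, 3.33 to 3.88 in GF-ND and 3.45 to 3.73 in GF-HFD mice). Of other lists, 6 of 6 Mueller glia markers (median 0.08) and 6 of 6 microglia markers (median 0.34) were fitted higher, as were 5 of 8 bipolar (0.04), 6 of 7 fibroblast (1.88), 4 of 5 ciliary body (0.79), 7 of 7 muscle (3.46), 2 of 6 pigment epithelium (-0.36) and 1 of 4 oligodendrocyte markers (-0.31), and 14 of 14 lens markers (-3.03) and 4 of 5 cornea markers (-0.11) lower. The muscle value rests on GF-HFD mouse 13, whose muscle markers summed to 39.2 CPM, against 4.13 to 4.73 in the other GF-HFD mice and 3.85 to 6.00 in GF-ND mice. Whether the makeup of the dissected tissue contributes to the levels of the 9 genes was not tested.

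Leaving out mouse 11 turned the arrangement described above into higher values in GF-HFD retinas, though still with no gene past the adjusted test. Without it, all 9 genes had a higher fitted level, beside 51.0% of the 26338 genes tested and 65.0% of those with at least 10 CPM, and the median log2 fold change was 0.19, beside 0.01 and 0.08. An unadjusted p under 0.05 was reached by 3 of the 9, beside 12.1% of all genes in this direction and 23.5% of those with at least 10 CPM. These were Gad2 (log2 fold change 0.25, SE 0.08, edgeR adjusted p = 0.0997), Slc32a1 (0.24, SE 0.07, adjusted p = 0.101) and Tfap2b (0.19, SE 0.08, adjusted p = 0.191). In the same fit 1.60% of all genes had an adjusted p under 0.05. In 4 of the 9 genes (Gad1, Gad2, Slc32a1 and Tfap2b) every GF-HFD mouse was above each of the 3 GF-ND mice, beside 9.67% of all genes, or 20.2% in either direction. In these 4 genes mouse 11 was the only GF-ND mouse that overlapped the GF-HFD mice. Their count was thus known before the mouse was left out and is no separate evidence of a diet difference. For this count the share among genes with at least 10 CPM, the fitter background for these 4, was not computed. With scaling recomputed over the 7 libraries, the highest GF-ND and lowest GF-HFD values were 309 and 311 CPM for Gad1 and 50.7 and 55.1 CPM for Slc32a1. The glycine gene Slc6a9 (0.12, SE 0.10) and the acetylcholine genes Chat (0.20, SE 0.17), Slc18a3 (0.26, SE 0.17) and Slc5a7 (0.18, SE 0.15) still overlapped between diets. Without both mouse 11 and mouse 19, 3 genes again had an unadjusted p under 0.05, beside 9.51% of all genes in this direction. The share among genes with at least 10 CPM was not computed for that fit either.

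**Figure D4:**
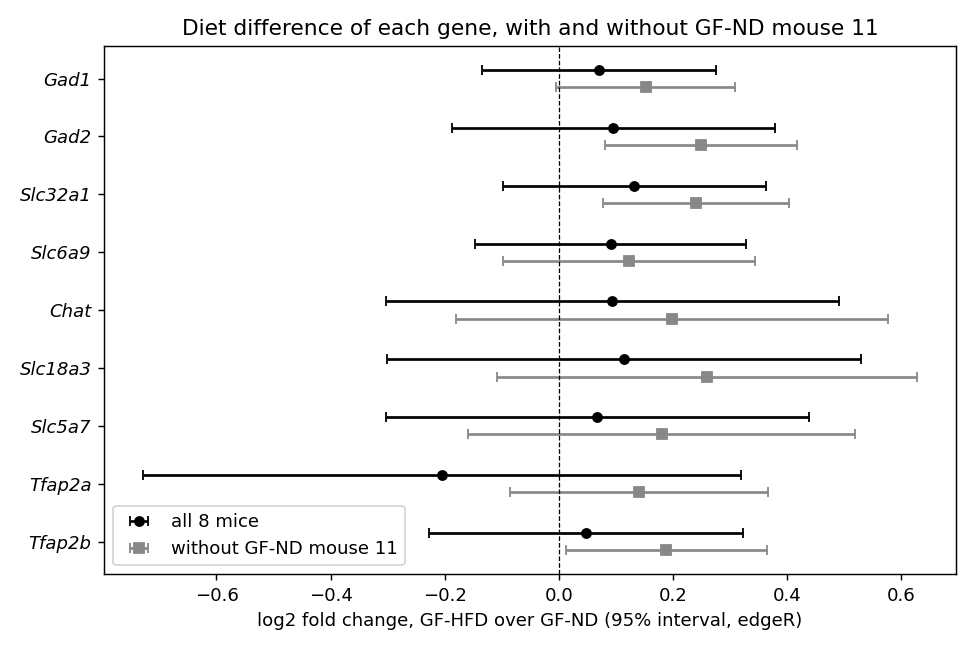
Log2 fold change between diets (x axis, positive where GF-HFD is higher) with its 95% interval from edgeR for the 9 genes, with all 8 mice (circles) and without GF-ND mouse 11 (squares). All intervals from the 8 mice span 0, and without mouse 11 those of Gad2, Slc32a1 and Tfap2b lie above 0 before adjustment.

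Among the other genes of these pathways, few had groups that stood apart. Of 83 genes on 5 lists (GABA, glycine and acetylcholine handling and reception, amacrine fate factors, and amacrine subtype markers), 82 were tested and Foxn4, with 6 counts in all, was not. Of the 82, 54 (65.9%) had a higher and 28 a lower fitted level, beside 46.3% higher among all genes and 60.9% among those with at least 10 CPM. Their median log2 fold change was 0.07. With edgeR, 0 of them had an adjusted p under 0.05, while 0 were higher and 1 lower at an unadjusted p under 0.05, beside 2.85% and 4.53% of all genes. The groups did not overlap in 4, or 4.88%, near the 4.83% of all genes.

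The gene with an unadjusted p under 0.05 was Chka, a choline kinase, which directs choline to membrane lipids instead of acetylcholine and works in most cells. It had 56.7, 77.1, 53.5 and 56.5 CPM in GF-ND and 44.4, 43.4, 47.2 and 42.3 CPM in GF-HFD mice. All GF-HFD mice were below all GF-ND mice, with mouse 10 well above the rest. The log2 fold change was -0.46 (SE 0.12, lower in 4 of 4 mice, edgeR adjusted p = 0.649). Without mouse 11 the edgeR adjusted p was 0.0423 (log2 fold change -0.51), but it was 0.0796 without mice 11 and 19 (-0.49), 0.898 without mouse 10 (-0.33) and 0.0947 with DESeq2. Chka had an adjusted p under 0.05 in 1 of the 19 alternatives, and the antisense genes Gm16066 and AC133523.2 share 74 and 165 exon bases with it.

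Of the other 20 acetylcholine genes, 13 were higher and 7 lower. They include the choline transporter Slc44a1 at 0.16 (SE 0.13) and the nicotinic receptor subunit Chrna6 at 0.16 (SE 0.10). Chrnb2, the beta subunit of most nicotinic receptors in retina and brain, was named after its values were seen because its groups did not overlap. It had 64.5 to 69.7 CPM in GF-ND and 73.0 to 78.0 CPM in GF-HFD mice (log2 fold change 0.14, SE 0.07, edgeR adjusted p = 0.649), but 1365 of its exon bases overlap Adar on the opposite strand. The hydrolysing enzyme Ache, also singled out afterwards, was at -0.13 (SE 0.10).

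Of 7 GABA genes, 6 were higher and 1 lower (median 0.07). Of 8 glycine genes, 5 were higher and 3 lower (median 0.03), among them the glycine cleavage enzymes Dld at 0.11 (SE 0.07) and Gldc at 0.40 (SE 0.27). Of 24 fate factors tested, 18 were higher and 6 lower (median 0.08), with Pax6, a master regulator of eye development that stays on in amacrine cells, at -0.11 (SE 0.12) and Neurod1 at -0.03 (SE 0.14).

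Of 22 subtype markers, 12 were higher and 10 lower (median 0.05), with the calcium-binding protein Calb2 at 0.17 (SE 0.12) and the transcription factor Prox1 at -0.16 (SE 0.19). Sst, the peptide somatostatin, had 84, 118, 136 and 36 counts in GF-ND and 178, 142, 154 and 144 in GF-HFD mice, with no overlap after scaling (log2 fold change 0.69, SE 0.35, edgeR adjusted p = 0.655). Slc18a2, the vesicular carrier of dopamine, had 10.3 to 13.9 CPM in GF-ND and 8.72 to 10.1 CPM in GF-HFD mice (log2 fold change -0.26, SE 0.13, edgeR adjusted p = 0.658). Both were named after their values were seen, as the subtype markers whose groups did not overlap.

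Among 10347 other genes with a mean of at least 10 CPM, those whose log2 CPM was most like the mean of each group over the 8 libraries were picked by Pearson r. For the GABA genes these were the cannabinoid receptor Cnr1 (r = 0.994), Cacng5 (0.993) and Ccdc43 (0.990), for Slc6a9 they were Sec23b (0.981), Tnks1bp1 (0.966) and Cant1 (0.959), and for the acetylcholine genes Rbfox1 (0.993), Tulp4 (0.983) and Apba1 (0.981). For the AP-2 genes they were Ngef (0.991), Tnrc18 (0.988) and Arhgap23 (0.988). With 8 libraries and this many candidates, values this high are a description only, and no p is attached. Cnr1 is a presynaptic receptor found on GABA-releasing neurons, and it had a log2 fold change of 0.11 (SE 0.13) between diets.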

How the data were processed

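RNA of whole retinas from 4 GF-ND and 4 GF-HFD mice was sequenced as read pairs, 1 library per mouse. The authors aligned reads with STAR 2.4.2 to GRCm38 and counted them per gene by featureCounts (Subread 1.4.6-p1, per the labels), and deposited these raw counts unscaled and unfiltered. The strand setting is not given in the sources used here. Groups were taken from the sample titles. Genes that reached 10 counts summed over all 8 libraries were scaled by TMM and then fitted in edgeR 4.0.16 (R 4.3.3, quasi-likelihood test), with Benjamini-Hochberg adjustment over all genes tested and 95% intervals from the SE. Log2 CPM used a prior count of 2. Single genes were also tested by two-sided exact permutation over 70 arrangements. Exon lengths and overlaps came from GENCODE vM21, and promoter sequences from RefSeq (GRCm38.p6), where all 9 genes matched. The study names another GENCODE release for its counts, so lengths and overlaps may differ from those used in counting.

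The members and the lists of pathway and marker genes were chosen with earlier results of these data known. Of 5 horizontal cell markers, 4 were found by symbol. Genes named beside the 9 were list members with an unadjusted p under 0.05, the 2 with the highest mean CPM per list, and the 3 most alike per transmitter group. Some genes that this rule names are not reported here. Alternatives were RLE factors, library totals, upper-quartile factors, removal of lens genes, no filter, filterByExpr, 10 CPM in 4 libraries, DESeq2 1.42.0, limma-voom (limma 3.58.1), robust dispersion, each mouse left out, and mice 11 and 19 left out. P-values judge the difference between diets against the spread between mice.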

Additional observations from a re-analysis of the deposited data

Results flagged for a closer look

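In 18 groups of 4 mice (9 genes, each diet) a library was looked for whose gap to its nearest neighbour takes up more of the group's range than Dixon's 95% limit, which chance passes in about 1 in 20 groups. There were 2. Gad2 in GF-ND mouse 11 was at 6.56 log2 CPM, and its gap made up 0.833 of the range of the GF-ND mice. Tfap2b in GF-HFD mouse 13 was at 7.77 log2 CPM, with a gap of 0.843 of the range of the GF-HFD mice. Mouse 11 is the library with the most lens counts. Mouse 13 had 0.0203% of counts on the lens list, the highest muscle markers (mean 2.22 log2 CPM, against at most -0.94 in the other 7 mice) and the lowest pigment epithelium markers (1.37, against 2.42 to 6.32). The part of tissue makeup in either value was not tested.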

How the results depend on the processing

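The count of the 9 genes with an adjusted p under 0.05 was 0 in all 19 alternatives, where 46 genes of the table had one with DESeq2, 421 without mouse 11, 55 without mice 11 and 19, and 0 otherwise. The count at an unadjusted p under 0.05 and higher was 0 to 3 when a mouse was left out (3 without mouse 11) and 3 without mice 11 and 19. The number with a higher fitted level was 6 to 9 over the left-out mice, with the low value without mouse 12, and 6 of 8 tested at 10 CPM in 4 libraries, a filter that Slc18a3 did not pass. The median log2 fold change was 0.022 to 0.19 over the left-out mice and 0.022 to 0.22 over the other settings. Signs turned for Tfap2b at 10 CPM in 4 libraries (-0.0085) and for Tfap2a (0.12), Pax6 (0.010) and Prox1 (0.082) without mice 11 and 19. With 1 mouse left out, ranges were -0.35 to 0.14 for Tfap2a, -0.018 to 0.19 for Tfap2b, -0.071 to 0.18 for Slc5a7, -0.010 to 0.22 for Chat, -0.0016 to 0.26 for Slc18a3, -0.17 to 0.026 for Pax6, -0.25 to 0.10 for Prox1 and -0.15 to 0.033 for Neurod1. The cause of these turns was not tested. Gad1, Gad2, Slc32a1 and Slc6a9 kept a positive sign in all 19. No paired analysis was run, because each library is from a different mouse and nothing in the labels pairs mice across diets.

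Slc18a3 had the fewest counts of the 9, 174 to 297 per library. Its counting error of 6.42% was below the spread between mice (21.7% in GF-ND and 11.9% in GF-HFD), and its fold interval was 0.811 to 1.44.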
